A study of Mus musculus with 217 samples.

Results

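The comparison described here set LacQ140_A mice against WT mice in the striatum at 6 months of age, when neither group had ever received isopropyl β-D-1-thiogalactopyranoside (IPTG). Its members were chosen by their labels alone, and they are 20 of the 217 RNA-Seq libraries, 10 from LacQ140_A and 10 from WT mice, each with 5 females (F1 to F5) and 5 males (M1 to M5). Every mouse on both sides, C57BL/6 in background, carried the beta-actin-LacIR tg transgene. At the huntingtin locus the LacQ140_A mice were Hdh(LacO-140Q/+), whereas the WT mice were Hdh(LacO-+/+). The titles of the WT samples also carry the word MOCK, which those of the LacQ140_A samples lack. What a mock treatment held is not given in the sources used here. The 140Q allele is *Htt* with an expanded CAG repeat and Lac operators set around its transcription start site, and the Lac repressor, driven by the beta-actin promoter in both groups, holds it down from conception until IPTG is given. That repression is partial, and mutant huntingtin is still made in the brain of LacQ140_A mice, at a lowered level. The samples were right striata, all 6-month libraries carried one batch label, and no library of either group was left out. Where other groups serve as a reference, they are LacQ140 mice kept on IPTG from embryonic day 5, in which the mutant allele is not repressed, WT mice on IPTG (WT_IPTG), and LacQ140_2M mice, whose IPTG was withdrawn at 2 months. The design asks what remains changed in the striatum when a mutant allele is present but partly repressed for life.

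Huntingtin is a large scaffold protein that every cell makes, and its expanded form is most damaging to the spiny projection neurons of the striatum. In mouse models that express the mutant protein these neurons lose transcripts of their own identity, such as dopamine receptors, phosphodiesterases and the enkephalin precursor, over months. The LacQ140 system makes the mutant allele switchable while the WT allele stays under its own promoter. The counts do not part the alleles, and in whole tissue fewer cells of a type cannot be told apart from less RNA per cell.

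Expected counts per library summed to between 44425795 and 62867692, and all 10 females and 10 males matched their sex labels by *Xist* and Y-linked transcripts. Markers of spiny neuron signalling (*Drd1*, *Drd2*, *Ppp1r1b*, *Penk* and others, 41 genes) summed to between 20030 and 30520 in every one of the 20 libraries, in counts scaled to library size (CPM). The 5 WT males stood apart from every other set of 5 mice of the 6-month striatum, including the WT females, and this touches most of what follows. *Phyhd1*, a dioxygenase gene, lay between 10.0 and 13.7 CPM in WT males and between 23.0 and 30.7 CPM in WT females, while each of the other sets of group and sex averaged 22.1 CPM or more. *Sult1a1*, a phenol sulfotransferase gene, averaged 11.0 ± 2.7 CPM (SD, n = 5) in WT males and 31.3 ± 4.52 CPM in WT females. The methods state that cages were uniform in sex, genotype and treatment, so a cage, or any other thing the 5 WT males shared, cannot be told apart from being a WT male. The main results are therefore given with all 20 libraries and again without the 5 WT males, with sex as a term of that fit, an alternative chosen after the data were seen. The caging rule covers every group, so cage and group cannot be told apart in either fit.

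Calls rest on edgeR's quasi-likelihood test, with an adjusted p-value (Benjamini-Hochberg) under 0.05 and a difference in level of at least 20%. Between LacQ140_A and WT striatum 326 of 35808 genes were called, which is 0.91% of those tested, and 154 had risen and 172 had fallen. The changes were small. Their median size was 0.41 on the log2 scale, and 50 of the 326 exceeded 1. Of the called genes 59 had a mean under 1 CPM. In 9 genes, or 0.0251% of those tested, the 10 LacQ140_A and 10 WT libraries did not overlap. All adjusted p-values given are those of this test, and the SE of a log2 fold change is the one its F statistic implies. The count moved with the libraries in the fit. It was 131 when LacQ140_A and WT were fitted without the other groups, and those held 37.7% of the 326. *Hmgcs1*, *Idi1*, *Mvd*, *Hspa5*, *Creld2*, *Ugt8a*, *Cspg4*, *Per2*, *Nr1d2*, *Chordc1*, *Hspa1b*, *Mxd3*, *Gm5067* and *Gm26723*, which are described further on, were not called in that fit (adjusted p from 0.0503 to 0.137). Of single libraries left out, the count was 165 without WT M3, 172 without WT M2 and 214 without WT M5. It was 173 without LacQ140_A F2, 192 without M1, 195 without M2, 204 without M3 and 210 without M4, and it rose to 514 without LacQ140_A F5 and 543 without LacQ140_A M5.

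Without the 5 WT males 24 genes were called, 12 risen and 12 fallen, and 22 of the 326 were among them. Leaving out the 5 WT females instead, which costs the fit as many libraries, gave 616 called genes, 268 risen and 348 fallen. Of the 326 genes 325 had the same direction without the WT males, and their median change along the direction of the call was 0.31 in place of 0.41. The sizes therefore moved less than the number that passed the test. Fitted within each sex, 127 genes rose and 148 fell between males, together 0.768% of those tested. Between females 14 were called, 0.0391%. A p under 0.05 before adjustment was found in 1991 of 35808 genes between females, 3615 between males and 4485 with all libraries. If no gene had changed, a share of about 0.05 of the genes would have such a p. Among the 326 genes 323 had the same sign in both sexes, with a median change of 0.48 in males and 0.32 in females. These genes were chosen on both sexes together, so their shared sign is a description.

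*Htt* (ENSMUSG00000029104, chromosome 5, 34761740 to 34912534 on GRCm38), the targeted gene, was lower in LacQ140_A mice. Its level lay between 72.4 and 99.9 CPM in the 10 LacQ140_A libraries (median 87.9) and between 90.4 and 136.9 CPM in the WT libraries (median 113). All 10 LacQ140_A libraries were below the WT median, and the groups overlapped between 90.4 and 99.9 CPM. The means were 87.7 ± 8.32 and 116.1 ± 14.8 CPM (SD, n = 10 each), which is -0.40 on the log2 scale (SE 0.067, adjusted p = 0.000233). Total *Htt* was thus 75.6% of the WT level, with a 95% confidence interval from 69.0 to 82.8%. LacQ140_2M mice were at 88.9 ± 8.89 CPM and LacQ140 mice on IPTG at 102 ± 10.9 CPM, against 111 ± 11.5 CPM in WT_IPTG. The difference from WT was -0.48 in males (adjusted p = 0.00304) and -0.33 in females (adjusted p = 0.461), and without the WT males it was -0.30 (adjusted p = 0.208). *Htt* overlaps *Msantd1* on the same strand, and how reads shared by both genes were assigned is not given in the sources used here.

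The cortex of the same mice and the striatum of other mice at 12 months bear on this value without the 6-month striatal libraries. In 6-month cortex total *Htt* was 81.5 ± 7.25 CPM in LacQ140_A and 123 ± 15.7 CPM in WT (log2 fold change -0.60, adjusted p = 3.6e-07), and without the WT males -0.72 (adjusted p = 1.5e-07). In 12-month striatum it was 93.4 ± 15.9 CPM in 10 LacQ140_A and 134 ± 12.0 CPM in 9 WT mice (log2 fold change -0.52, adjusted p = 6.53e-08). The 12-month libraries stand in another table and carry another batch label, so levels at the 2 ages are not compared.

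The operators of the 140Q allele flank the start site of *Htt*, and the 250 bases on its upstream side are printed here, as RefSeq gives them for GRCm38.p6, plus strand, without operators. They are shown because the repressor acts around this start, and the bases downstream are not printed. The capitals mark the 4 matches, on both strands, to the GC box GGGCGG, the core that SP1 family factors bind. Of 32851 RefSeq promoters of this length 32.7% hold at least 1 match, and the match is a description of the letters only.
*Htt*, chr5:34761490-34761739: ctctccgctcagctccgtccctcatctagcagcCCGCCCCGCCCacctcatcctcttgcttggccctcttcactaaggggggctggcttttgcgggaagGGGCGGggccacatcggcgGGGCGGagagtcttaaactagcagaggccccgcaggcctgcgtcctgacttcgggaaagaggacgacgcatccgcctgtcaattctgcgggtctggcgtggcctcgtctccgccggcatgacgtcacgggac

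**Figure D1:**
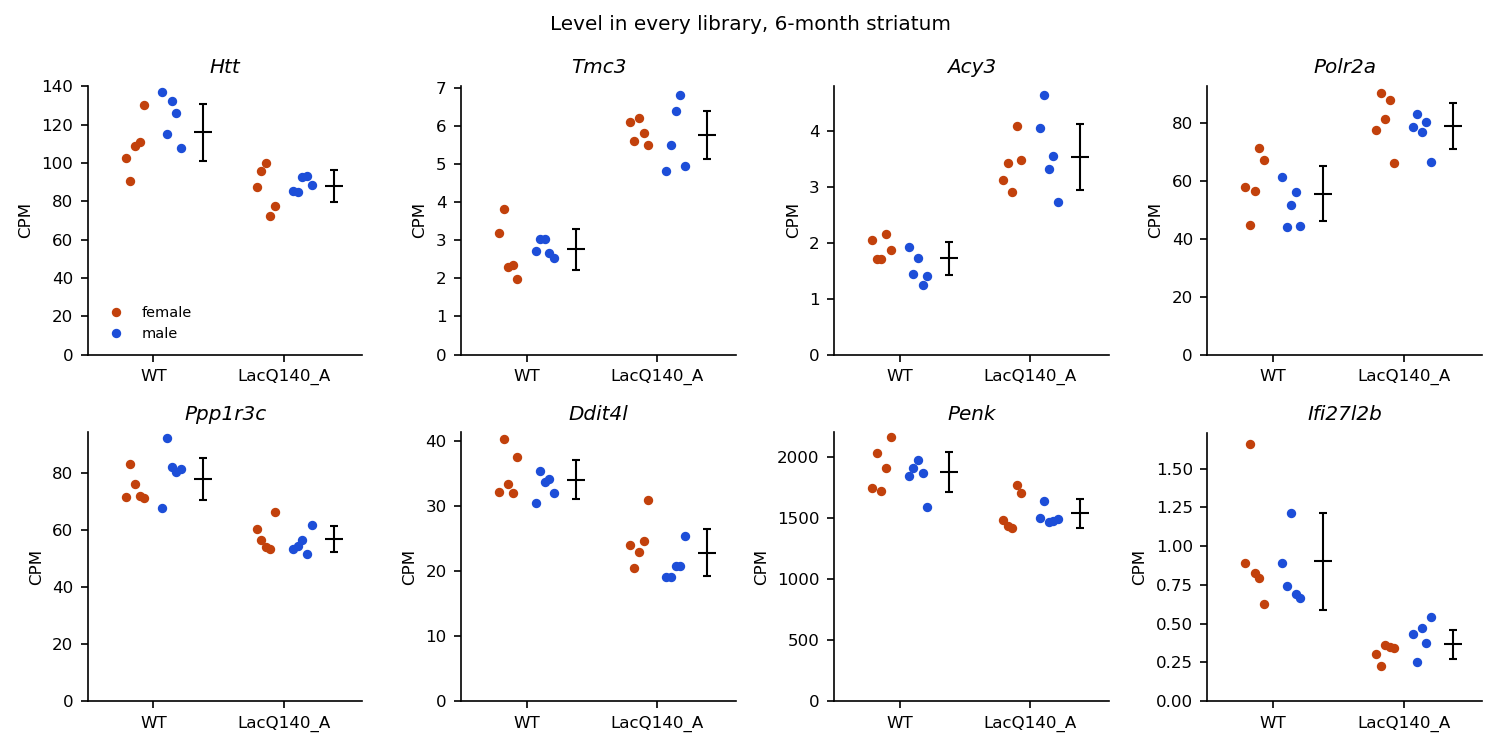
Level in CPM of 8 genes in each 6-month striatal library, WT and LacQ140_A side by side, with females in orange, males in blue and the mean ± SD of the 10 mice in black. *Tmc3*, *Acy3*, *Ppp1r3c* and *Ifi27l2b* have no overlap between the groups, and *Htt* overlaps between 90.4 and 99.9 CPM.

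The genes with the smallest p-values among those that rose were *Tmc3*, *Acy3*, *Abhd1* and *Prob1*, and each was also called without the WT males. *Tmc3* (ENSMUSG00000038540, chromosome 7, 83584927 to 83625614), a member of the transmembrane channel-like family, lay between 4.82 and 6.80 CPM in LacQ140_A (median 5.70) and between 1.97 and 3.82 CPM in WT (median 2.69). The groups did not overlap, and the level was 2.08 times that of WT (log2 fold change 1.05, SE 0.107, adjusted p = 9.79e-10), or 1.02 without the WT males (adjusted p = 7.53e-05). *Acy3* (ENSMUSG00000024866, chromosome 19, 3986570 to 3990007), which encodes an aminoacylase, lay between 2.72 and 4.63 CPM (median 3.45) against 1.24 to 2.16 CPM in WT (median 1.72). It too had no overlap (log2 fold change 1.04, SE 0.107, adjusted p = 9.94e-10), and the value without the WT males was 0.84 (adjusted p = 0.000544). LacQ140 mice on IPTG, compared with WT_IPTG, had nearly the same changes, 1.03 for *Tmc3* and 0.88 for *Acy3*, and in neither gene did the test of the difference between the effects pass (adjusted p = 1 and 0.824). In 12-month striatum both rose again in LacQ140_A, by 1.201 and 1.25 on the log2 scale (adjusted p = 8.61e-12 and 2.22e-13). In cortex neither was called, with values of 0.41 and 0.22 (adjusted p = 0.48 and 0.369).

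*Prob1* (ENSMUSG00000073600, chromosome 18, 35650351 to 35655238) lay between 7.93 and 11.5 CPM in LacQ140_A and 4.28 and 7.79 CPM in WT, again without overlap (log2 fold change 0.65, adjusted p = 2.71e-06). It overlaps *SPATA24* on the same strand. *Polr2a* (ENSMUSG00000005198, chromosome 11, 69733997 to 69758637), the largest subunit of RNA polymerase II, lay between 66.4 and 90.7 CPM (median 79.6) against 44.2 to 71.6 CPM in WT (median 56.5). All 10 LacQ140_A libraries were above the WT median, by 0.51 on the log2 scale (SE 0.077, adjusted p = 4.73e-05), or 0.46 without the WT males (adjusted p = 0.013). *Smoc1*, a secreted calcium-binding matrix protein, rose by 0.39 (adjusted p = 0.000162) and was not called without the WT males, at 0.35 (adjusted p = 0.0942). Both genes rose in 12-month LacQ140_A striatum as well, by 0.55 and 0.77 (adjusted p = 1.42e-08 and 4.51e-12), and neither was called in cortex.

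Among the fallen genes, *Ppp1r3c* (ENSMUSG00000067279, chromosome 19, 36731731 to 36736653), which tethers protein phosphatase 1 to glycogen, had the smallest p-value. It lay between 51.5 and 66.3 CPM in LacQ140_A (median 55.5) and 67.7 and 92.2 CPM in WT (median 78.3). The groups did not overlap (log2 fold change -0.45, SE 0.061, adjusted p = 3.09e-06), and it fell in cortex as well (-0.47, adjusted p = 0.0117) but was -0.08 at 12 months (adjusted p = 0.772). *Ddit4l* (ENSMUSG00000046818, chromosome 3, 137621612 to 137628333), an inhibitor of mTOR signalling, lay between 19.1 and 30.8 CPM (median 21.8) against 30.4 to 40.2 CPM in WT (median 33.5). Only LacQ140_A F5, at 30.8 CPM, reached into the WT range, and the log2 fold change was -0.58 (SE 0.093, adjusted p = 0.000108). *Ifi27l2b*, of an interferon-inducible family, had a mean of 0.365 ± 0.0952 CPM against 0.901 ± 0.315 CPM in WT and did not overlap (log2 fold change -1.33, adjusted p = 2.63e-05). These 3 genes were also called in striatum when the WT males were left out, at -0.31, -0.49 and -1.58 (adjusted p = 0.0183, 0.0201 and 0.000425). In cortex *Ppp1r3c* was not called once those mice were left out.

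Other fallen genes of small p-value passed the test only while the WT males were in the fit. *Car2*, a carbonic anhydrase abundant in oligodendrocytes, averaged 169 ± 16.2 CPM in LacQ140_A and 232.2 ± 41.4 CPM in WT (log2 fold change -0.46, adjusted p = 6.59e-05), and 202 ± 38.9 CPM in the 5 WT females alone. *Pdp1*, the phosphatase that activates pyruvate dehydrogenase, changed by -0.48 (adjusted p = 0.000104), the ESCRT-III subunit *Chmp1b* by -0.37 (adjusted p = 4.73e-05), and the postsynaptic scaffold *Homer1* by -0.45 (adjusted p = 0.0009). Once those mice were left out, *Car2*, *Pdp1*, *Chmp1b* and *Homer1* stood at -0.28, -0.40, -0.28 and -0.28 (adjusted p = 0.223, 0.0873, 0.136 and 0.369). *Dusp14*, a phosphatase of MAP kinases, lay between 30.6 and 56.7 CPM in 7 LacQ140_A libraries, at 79.0 CPM in F4, 85.8 CPM in F5 and 84.4 CPM in M5, and between 63.7 and 125.2 CPM in WT, and moved from -0.72 (adjusted p = 0.0014) to -0.38 (adjusted p = 0.442). F4, F5 and M5 were also the LacQ140_A libraries inside the WT range for *Mxd3*, and their slopes of log2 CPM on log2 transcript length, -0.238, -0.221 and -0.211, were the lowest of the group (-0.173 to -0.094 in the other 7, and -0.265 to -0.128 in WT). By their labels F4, F5 and M5 also carry the highest mouse numbers of their group. With the slope as a term in the fit *Dusp14* stood at -0.71 (adjusted p = 0.00193) and *Mxd3* at -0.67 (adjusted p = 0.0252). *Hspa1b*, the inducible HSP70, was called at -1.56 (adjusted p = 0.0171) on account of a single library, as WT M3 was at 29.3 CPM while the next WT library was at 4.36 CPM. Reads of *Hspa1b* and of its near-identical paralog *Hspa1a* are hard to part, so its level is uncertain.

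Several called genes of few reads complete the set with the largest folds. *Gm18517* lay between 1.11 and 1.85 CPM in LacQ140_A and 1.88 and 3.26 CPM in WT, without overlap (log2 fold change -0.67, adjusted p = 0.00245). *Gm48678*, *AC132106.1*, *Mxd3*, *Srarp* and *A230009B12Rik* fell by 0.97, 0.86, 0.78, 0.74 and 0.74 on the log2 scale, and of these *Gm48678* was also called without the WT males (-1.17, adjusted p = 0.0058). *A930015D03Rik* rose by 1.05 (adjusted p = 0.0343). *Gm26723* was called at 5.41 because LacQ140_A F4 alone was at 26.0 CPM while no other LacQ140_A library passed 0.183 CPM. Its median was 0.0865 CPM against 0.0318 CPM in WT.

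The study follows 7 transcripts of striatal projection neurons, and of these *Penk* was called. *Penk* (ENSMUSG00000045573, chromosome 4, 4133531 to 4138819), the enkephalin precursor of indirect-pathway neurons, lay between 1420 and 1767 CPM in LacQ140_A (median 1486) and 1590 and 2163 CPM in WT (median 1888). All 10 LacQ140_A libraries were below the WT median, and the groups overlapped between 1590 and 1767 CPM. The log2 fold change was -0.29 (SE 0.053, adjusted p = 0.001), with -0.28 in males, -0.29 in females and -0.30 without the WT males (adjusted p = 0.0428). With the allele expressed, *Penk* fell by 0.72 in LacQ140 mice, and the effects differed (difference 0.43, adjusted p = 0.000593). *Drd1*, the dopamine receptor of direct-pathway neurons, lay between 194.3 and 257.6 CPM against 227.5 to 304.9 CPM in WT. Its log2 fold change of -0.20 (adjusted p = 0.0377) was under the bound of 20%, so it was not called.

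The other 5 transcripts missed the test in LacQ140_A. *Pde10a*, the striatal phosphodiesterase, stood at -0.15 (adjusted p = 0.429), *Ppp1r1b* (DARPP-32) at -0.13 (adjusted p = 0.594) and the dopamine receptor *Drd2* at -0.12 (adjusted p = 0.627). *Scn4b*, a sodium channel subunit, stood at -0.08 (adjusted p = 0.731) and the adenylyl cyclase *Adcy5* at -0.06 (adjusted p = 0.786). All 5 values were below 0, as they were in LacQ140 mice, where the same genes fell by 0.60, 0.30, 0.45, 0.69 and 0.35. The difference between the effects passed the test for *Scn4b* (0.61, adjusted p = 0.000803) and *Pde10a* (0.45, adjusted p = 0.0349), and not for *Ppp1r1b*, *Drd2* or *Adcy5* (adjusted p = 0.705, 0.23 and 0.254).

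Over all 41 tested genes of spiny neuron signalling, 1 rose and 2 fell in LacQ140_A, where 0.43% of all genes rose and 0.48% fell, against 1 risen and 25 fallen in LacQ140 mice, where 3.97% of all genes rose and 3.96% fell. The median log2 fold change was -0.09 in LacQ140_A, with 31 of 41 below 0, and -0.31 in LacQ140. Over all genes tested the LacQ140_A median was 0. The fallen genes were *Penk* and *Arpp19*, a cAMP-regulated phosphoprotein (-0.33, adjusted p = 0.00725), and the risen gene was the orphan receptor *Gpr149* (0.37, adjusted p = 0.00519). In the fit that left the WT males out, *Penk* alone was called, where 0.0338% of all genes fell, and the median was -0.05. Without LacQ140_A M5 1 gene rose and 4 fell, where 0.713% of all genes rose and 0.805% fell. None of 18 transcription factors of spiny neurons was called, with a median of 0.02.

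As a signature of the expressed allele served the 2722 genes that separated LacQ140 from WT_IPTG mice at 6 months and were not called between WT_IPTG and WT, where 0.584% of all genes were. No library of that comparison enters the one between LacQ140_A and WT, so the directions can be set side by side, apart from the genes taken out for IPTG, which used the WT libraries. In LacQ140_A mice 2363 of the 2722 genes, or 86.8%, changed in the direction of the expressed allele. Outside the signature, among 12549 genes of at least 1 CPM, the share was 66%. The median change along the LacQ140 direction was 0.15 on the log2 scale in LacQ140_A, against 0.42 in LacQ140 and 0.04 outside the signature. Of the 1387 risen genes 87.7% and of the 1335 fallen genes 85.9% changed in the same direction. The difference between the effects was called in 51 and 98 of them, where 0.542% of all genes were. The slope of the LacQ140_A on the LacQ140 changes through 0 was 0.20.

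Most of these changes were too small to pass the test gene by gene, and 179 of the 2722 signature genes were called in LacQ140_A in the same direction, where 0.91% of all genes were called in either direction. *Gm9755* was called in the opposite direction, with a mean of 0.0399 CPM. By size, genes that changed by less than 0.5 in LacQ140 had a median of 0.34 there and 0.12 in LacQ140_A. Those between 0.5 and 1 had 0.63 and 0.22, and the 293 genes that changed by 1 or more had 1.42 and 0.34, with 75.4% in the same direction. The genes were chosen for their change in LacQ140, which favours a larger value there. The direction held without the 5 WT males (81.5%, median 0.13), without the 5 WT females (82.4%, median 0.17), in males alone (83.2%, median 0.18) and in females alone (80.3%, median 0.12).

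**Figure D2:**
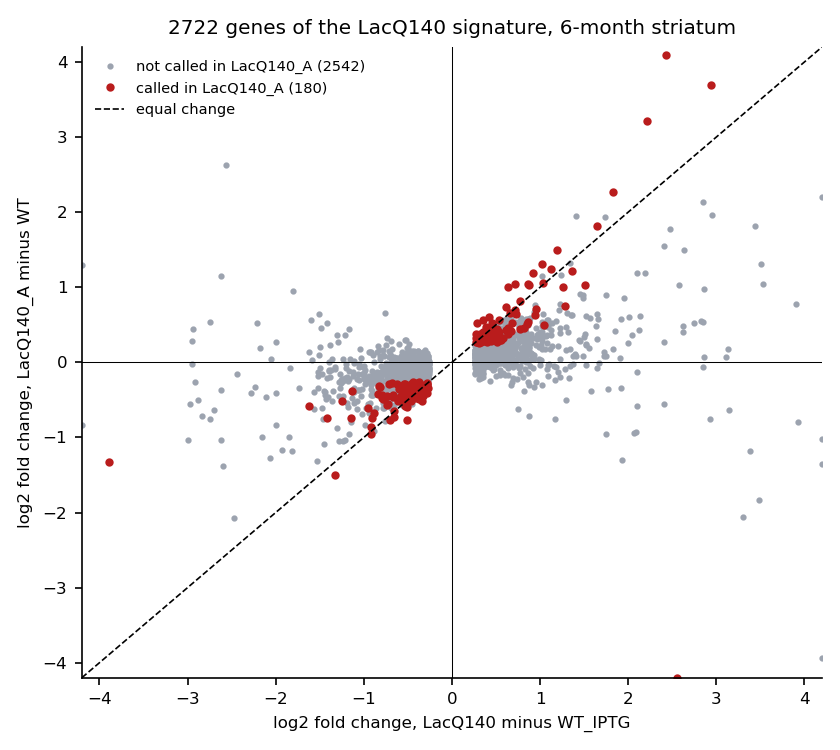
Log2 fold change of each of the 2722 signature genes in LacQ140 minus WT_IPTG (horizontal) and in LacQ140_A minus WT (vertical), with the 180 genes called in LacQ140_A in red and the other 2542 in grey. The dashed line is equal change, 7 genes beyond 4.2 are drawn at the edge, and 2363 genes lie in the quadrants of equal direction, most of them between the dashed line and 0.

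Read from the other side, 181 of the 326 genes called in LacQ140_A were also called in LacQ140 in the same direction, which is 55.5% of the LacQ140_A list and 6.37% of the 2840 genes of the LacQ140 list. In LacQ140, 7.93% of all genes were called. Of the rest 144 were not called in LacQ140, 114 with the same sign and 30 with the opposite sign, and *Gm9755* was called in the opposite direction. The difference between the effects was called in 13 of the 326 genes, where 0.542% of all genes were. In 8 of these the change was larger in LacQ140, namely *Ddit4l* (-0.58 in LacQ140_A against -1.63), *Ifi27l2b* (-1.33 against -3.89), *Penk*, *Arpp19*, *Neto2*, *Krt9*, *Clspn* and *Sbsn*. In the other 5 the signs were opposite, and these were *Mvd* (-0.37 against 0.20), *Ttc26* (-0.38 against 0.08), *Hvcn1* (0.28 against -0.12), *Gm9755* and *Gm22486*, the last pair with means under 0.04 CPM. These were named after their values were seen, where the rule for named genes did not hold them.

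Over all genes the difference between the effects was called in 194, with 126 changes less negative or more positive in LacQ140_A and 68 the other way. Signature genes made up 149 of the 194, and all of these had moved less in LacQ140_A. They were chosen for their change in LacQ140, which favours this direction. The difference was called in 103 genes without the WT males and in 307 without the WT females. These held 39.2% and 71.1% of the 194. The smallest p-values belonged to *Ddit4l*, *Gpx6*, *Slc4a11*, *Sec14l3* and *Gm15721*, which had fallen in LacQ140. *Gpx6*, a glutathione peroxidase gene, stood at -0.46 in LacQ140_A (adjusted p = 0.104) and at -2.11 in LacQ140 (difference 1.65, adjusted p = 2.49e-06). The bicarbonate transporter family gene *Slc4a11* stood at -0.20 and -1.42, *Sec14l3* at -0.16 and -1.27, and *Gm15721* at -0.10 and -1.23 (adjusted p of the difference 2.49e-06, 4.25e-06 and 9.15e-06). In the other direction were *Sfmbt2* and *Cbx8*, genes of Polycomb proteins, and the hyaluronan synthase *Has1*. *Sfmbt2* stood at 0.16 in LacQ140_A and 1.29 in LacQ140, *Cbx8* at 0.10 and 0.93, and *Has1* at -0.14 and 0.65. None of these 8 genes except *Ddit4l* was called in LacQ140_A.

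A gene list that the study drew from its disease models adds a narrower view. The study describes the list as made earlier from several Huntington's disease mouse models and as changed in LacQ140 mice too. Of its 71 genes listed as higher, 14 rose and 0 fell in LacQ140_A, where 0.43% of all genes rose, and 64 were above 0 with a median of 0.19. Of its 195 genes listed as lower, 21 fell and 0 rose, where 0.48% of all genes fell, and 176 were below 0 with a median of -0.14. In LacQ140 the medians were 0.53 and -0.46. The called genes included *Tmc3*, *Acy3*, *Polr2a*, *Smoc1* and the growth factor receptor *Fgfr4* among the risen and *Ddit4l*, *Penk*, *Homer1*, *Neto2* and *Tcf7* among the fallen. With the WT males left out 3 of the 71 rose (*Tmc3*, *Acy3* and *Polr2a*) and 5 of the 195 fell (*Ddit4l*, *Penk*, *Ifi27l2b*, *Cd59a* and *Fam83d*), where 0.0338% of all genes rose and as many fell, and the medians were 0.20 and -0.15.

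Among the pathways listed, cholesterol synthesis held the most called genes of one direction, and none of them was called without the WT males. Cells make cholesterol from acetyl-CoA by way of mevalonate, and the enzymes are switched on together by the SREBP2 factor when sterols in the endoplasmic reticulum run low. Of 22 genes 7 fell and 0 rose in LacQ140_A, where 0.48% of all genes fell and 0.43% rose, 20 were below 0, and the median was -0.14. *Hmgcs1*, which forms HMG-CoA, lay between 89.6 and 115.5 CPM in LacQ140_A (median 110.7) and between 100.8 and 171.7 CPM in WT (median 131.2), and changed by -0.28 on the log2 scale (SE 0.07, adjusted p = 0.0269). The 5 WT males averaged 153.3 ± 14.4 CPM, the 5 WT females 109 ± 10.8 CPM, and LacQ140_A males and females 108.3 ± 4.69 and 107.4 ± 10.6 CPM. Of these 4 sets the WT males were the high one.

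Other called genes of the list are given with their values in each sex. *Idi1*, which isomerizes isopentenyl diphosphate, fell by 0.43, *Mvd*, which makes it, by 0.37, and the sterol demethylating enzymes *Cyp51* and *Msmo1* by 0.36 and 0.43. In *Idi1*, *Cyp51* and *Msmo1* the WT males had the highest mean of the 4 sets, with changes of -0.63, -0.52 and -0.63 in males and -0.19, -0.19 and -0.20 in females. *Insig1*, which retains the SREBP complex in the endoplasmic reticulum, fell by 0.27, with 69.0 ± 6.57 CPM in WT males and 66.8 ± 8.6 CPM in WT females against 56.7 ± 2.64 and 55.9 ± 4.00 CPM in LacQ140_A. Its change was thus -0.28 in males and -0.26 in females, and that of *Mvd* -0.53 and -0.20. The test of the difference between the sexes called none of these 5 genes (adjusted p from 0.561 to 1), nor *Hmgcs1* (adjusted p = 0.0974). Without the 5 WT males 0 of the 22 genes were called and the median was -0.04. *Hmgcs1* stood at 0.02, *Mvd* at -0.16, *Idi1* at -0.12, *Cyp51* at -0.15, *Msmo1* at -0.15 and *Insig1* at -0.19, with adjusted p-values from 0.487 to 1. Without the 5 WT females 9 genes fell, where 0.978% of all genes did, and without LacQ140_A F1 and M1 4 did, where 0.221% of all genes fell. Between males 8 fell, where 0.413% of all genes did. In LacQ140 mice 1 of the 22 genes rose and 0 fell, where 3.97% of all genes rose and 3.96% fell. WT_IPTG against WT, which shares the WT libraries, had 4 fallen genes, where 0.204% of all genes fell, and a median of -0.19, with *Cyp51* at -0.29 and *Msmo1* at -0.34 (adjusted p = 0.0131 and 0.0157). In the cortex of the same mice 5 of the 22 genes fell in LacQ140_A (0.275% of all genes fell there), and in 12-month striatum, where 1.91% of all genes fell, 1 did (*Insig1* -0.34, adjusted p = 3.44e-05).

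A few chaperones of the endoplasmic reticulum fell as well. These proteins fold secreted and membrane proteins, and their genes are induced together by the unfolded protein response. Of 19 genes 4 fell and 0 rose, where 0.48% of all genes fell and 0.43% rose, 17 were below 0, and the median was -0.12. *Hspa5* (BiP), the main HSP70 of the compartment, lay between 193.3 and 298.3 CPM in LacQ140_A (median 218.5) and 237.4 and 372.7 CPM in WT (median 272.1), a difference of -0.32 on the log2 scale (SE 0.073, adjusted p = 0.0132). LacQ140_A M5 was the high library, at 298.3 CPM, and the next was at 246.2 CPM. The disulfide isomerase *Pdia4* fell by 0.32 (adjusted p = 0.00515), the secreted factor *Manf* by 0.33 (adjusted p = 0.00654) and *Creld2* by 0.28 (adjusted p = 0.0335). In males and females the values were -0.30 and -0.34 for *Hspa5*, -0.33 and -0.32 for *Pdia4*, -0.36 and -0.29 for *Manf* and -0.29 and -0.26 for *Creld2*. None of the 19 genes was called in males alone or in females alone.

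When the WT males were left out the same 4 genes stood at -0.28, -0.29, -0.30 and -0.28, and none was called, with adjusted p-values from 0.21 to 0.344. The median of the list was then -0.12, as before. Without WT M3 2 of the 19 fell, where 0.232% of all genes did, and without LacQ140_A F1 and M1 also 2, where 0.221% of all genes fell. In LacQ140 mice 8 of the 19 genes fell, where 3.96% of all genes did, and the median was -0.22, with *Hspa5* at -0.40 and *Pdia4* at -0.47. The effects did not differ by the test for any of the 4 genes (adjusted p from 0.659 to 1). In cortex *Hspa5* fell by 0.30 (adjusted p = 0.0487), and in 12-month striatum none of the 4 was called, with values between 0.00 and 0.10.

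The promoters of the called members that hold the motif of their pathway are printed here, so that these members can be read against their sequence. They are the 250 bases before the RefSeq start on GRCm38.p6, all on the plus strand. In *Hmgcs1* the capitals mark TCACNCCAC, a sterol regulatory element sought on both strands, which 1.05% of RefSeq promoters hold and which of 16 matched cholesterol genes *Hmgcs1* alone held. In *Hspa5* and *Creld2* they mark the ER stress response element (CCAAT and, 9 bases on, CCACG, sought on both strands), which 0.113% of promoters hold, while 7 of the 17 matched chaperone genes held it (*Calr*, *Canx*, *Creld2*, *Dnajc3*, *Hsp90b1*, *Hspa5* and *Pdia6*). Of those 7 the fallen genes were *Hspa5* and *Creld2*. A match is a description of the letters in this window.
*Hmgcs1*, chr13:119690101-119690350: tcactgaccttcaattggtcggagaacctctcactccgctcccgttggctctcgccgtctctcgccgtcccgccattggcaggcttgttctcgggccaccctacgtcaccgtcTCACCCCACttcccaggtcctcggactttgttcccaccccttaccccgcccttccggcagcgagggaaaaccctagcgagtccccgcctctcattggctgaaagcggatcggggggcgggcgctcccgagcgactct
*Hspa5*, chr2:34771840-34772089: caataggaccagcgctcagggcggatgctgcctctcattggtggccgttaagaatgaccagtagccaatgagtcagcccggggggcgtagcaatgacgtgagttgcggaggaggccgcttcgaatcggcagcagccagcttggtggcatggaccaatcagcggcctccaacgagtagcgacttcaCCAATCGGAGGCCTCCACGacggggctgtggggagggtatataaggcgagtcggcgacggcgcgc
*Creld2*, chr15:88819396-88819645: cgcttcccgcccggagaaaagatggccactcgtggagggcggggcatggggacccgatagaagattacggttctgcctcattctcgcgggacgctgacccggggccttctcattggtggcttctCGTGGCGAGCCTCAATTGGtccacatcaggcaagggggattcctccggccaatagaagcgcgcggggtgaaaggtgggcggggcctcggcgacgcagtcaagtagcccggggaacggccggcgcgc

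**Figure D3:**
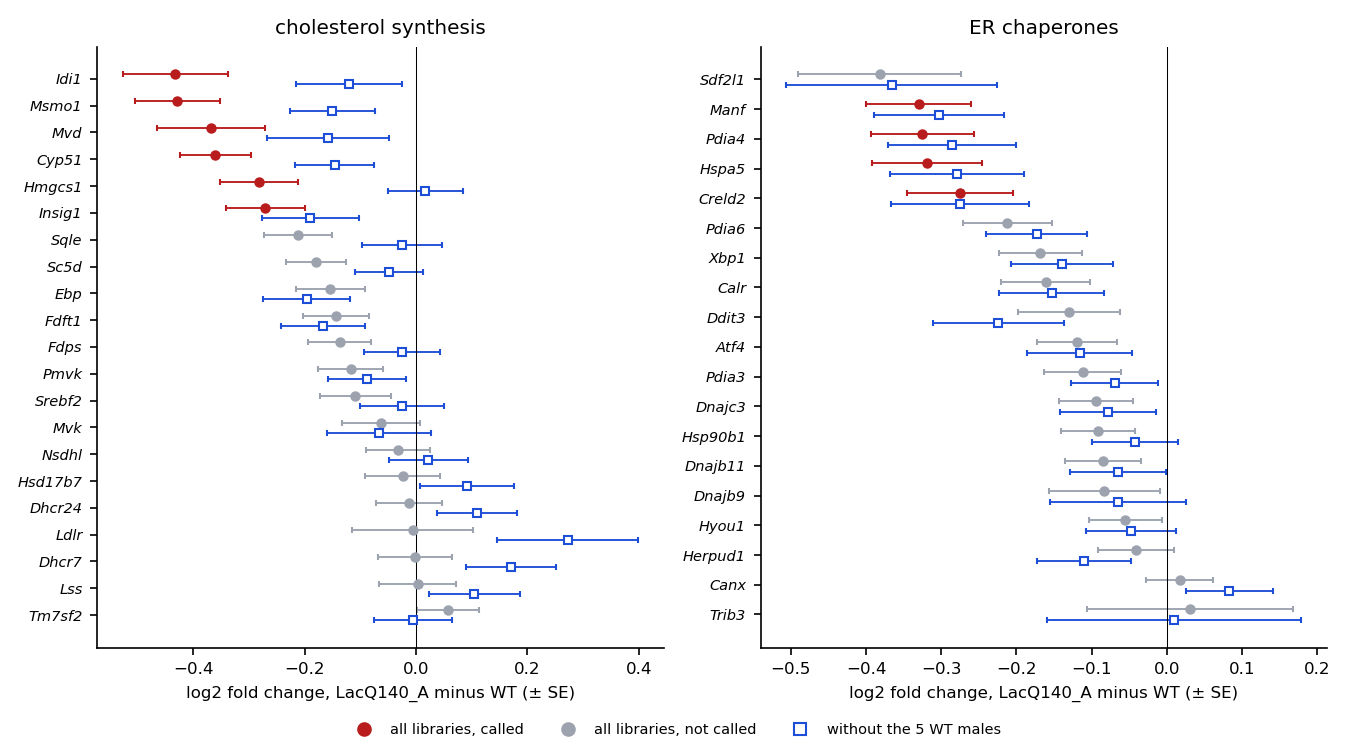
Log2 fold change ± SE, LacQ140_A minus WT, of the tested genes of cholesterol synthesis that are reported (left) and of the chaperones of the endoplasmic reticulum (right), with all libraries as circles, red where called, and without the 5 WT males as blue squares. The called cholesterol genes lie between -0.43 and -0.27 with all libraries and between -0.19 and 0.02 without the WT males, while the 4 called chaperones lie between -0.33 and -0.28 and between -0.30 and -0.28.

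Cells of the oligodendrocyte lineage, which make myelin, gave called genes in both directions. Of 12 oligodendrocyte markers 2 fell, among them *Ugt8a*, which makes the galactolipid of myelin (-0.55, adjusted p = 0.0126), where 0.48% of all genes fell, and 10 were below 0 with a median of -0.12. In LacQ140 mice 7 of the 12 fell, against 3.96% of all genes, with a median of -0.31. *Ugt8a* lay between 33.8 and 59.4 CPM in LacQ140_A (median 49.9) and between 36.96 and 99.05 CPM in WT (median 80.1), and the 12 markers together summed to 10690 to 13630 CPM against 11250 to 16260 CPM. The ranges overlapped widely. Of 10 markers of oligodendrocyte precursors 2 rose, where 0.43% of all genes did, *Enpp6*, which marks newly forming oligodendrocytes (0.43, adjusted p = 0.000907), and the proteoglycan *Cspg4* (0.28, adjusted p = 0.042), and *Enpp6* was called without the WT males too (0.49, adjusted p = 0.0183). In LacQ140 mice 0 of the 10 precursor markers rose and 2 fell, with a median of -0.05. With the WT males left out *Ugt8a* stood at -0.22 (adjusted p = 0.669). In that fit 0.0338% of all genes fell, and 1 oligodendrocyte marker was called as fallen. That was *Mobp*, a myelin protein gene named after its values were seen, at -0.36 (adjusted p = 0.01), which with all libraries stood at -0.25 (adjusted p = 0.0269), under the bound of 20%. *Enpp6* rose in 12-month striatum as well, by 0.66 (adjusted p = 1.77e-07). *Cspg4* stood at 0.31 without the WT males (adjusted p = 0.272) and was not called. Precursor markers called as risen numbered 1 without WT M3, 1 without LacQ140_A F1 and M1 and 3 without LacQ140_A M5. In those fits 0.229%, 0.179% and 0.713% of all genes rose.

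Pituitary hormone genes were called because of 2 LacQ140_A libraries. The 7 markers summed to 117.8 CPM in F1 and 89.8 CPM in M1, to between 2.53 and 6.88 CPM in the other 8 LacQ140_A libraries, and to between 1.95 and 6.21 CPM in WT. *Gh*, *Prl* and *Cga* were called as risen, and the cortex had 4 such calls, where 0.15% of all genes rose. Without F1 and M1 none of the 7 was called. The whole comparison then gave 143 genes, and 87.7% of the signature kept the LacQ140 direction with a median of 0.16. The part of pituitary RNA in other results was not tested beyond these values.

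Clock and heat-responsive genes each held 2 fallen members, where 0.48% of all genes fell. Among 15 clock genes these were *Per2* (-0.60, adjusted p = 0.0272) and *Nr1d2* (-0.32, adjusted p = 0.00776), and 13 of the 15 were below 0. Among 12 genes of the heat and cold response they were *Hspa1b* and the HSP90 cochaperone *Chordc1* (-0.49, adjusted p = 0.0143). Neither list, without the WT males, held a called gene, with *Per2* at -0.47 and *Nr1d2* at -0.28 (adjusted p = 0.424 and 0.286). Without WT M3 neither heat gene was called and 1 clock gene was, and the same counts were found without LacQ140_A F1 and M1. Without LacQ140_A M5 4 heat genes fell, where 0.805% of all genes did, against 0.232% without WT M3 and 0.221% without F1 and M1.

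None of the other lists held a called gene in LacQ140_A. They were developmental factors under Polycomb (31 tested, median 0.00), synaptic receptors of glutamate and GABA (32, 0.02), immediate early genes (19, -0.12), glucocorticoid-responsive genes (14, -0.03), huntingtin partners (13, 0.02), mismatch repair and DNA ligase genes (12, 0.01) and the mitochondrial genome (13, 0.09). The markers of astrocytes, microglia, endothelium, interneurons, cortical excitatory neurons, thalamus and septum, choroid plexus and blood gave none either, and their medians lay between -0.29 for blood and 0.06 for cortical neurons. Blood markers summed to 187.2 to 332.6 CPM in LacQ140_A and 231.7 to 498.7 CPM in WT, and all 6 were below 0. In LacQ140 mice 5 of the Polycomb factors rose and 1 fell, and 2 of the synaptic receptors rose and 6 fell, where 3.97% of all genes rose and 3.96% fell. Without the WT females 5 glucocorticoid genes were called as risen, where 0.753% of all genes rose, and without the WT males 0, where 0.0338% did, with a median of -0.30. The median of the immediate early genes was -0.41 in males, 0.21 in females and 0.07 without the WT males. Of these genes 2 fell without the WT females and 2 without LacQ140_A M5, where 0.978% and 0.805% of all genes fell.

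The difference between the sexes in the LacQ140_A effect was tested directly and was called in 8 genes, 0.0223% of those tested. In 7 of them the change was more positive in males, among them *Phyhd1*, *Sult1a1*, *Ptgds*, *Ugt1a6a*, *Ctla2a* and *Angptl4*, and in *Ednrb* it was more negative. *Angptl4*, an inhibitor of lipoprotein lipase, averaged 2.80 ± 0.951 CPM in WT males and 8.55 ± 1.56 CPM in WT females, and *Ednrb*, an endothelin receptor, 62.8 ± 3.15 and 40.9 ± 1.47 CPM. In *Angptl4* the WT males were the lowest of the sets and in *Ednrb* the highest.

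A gap between the WT sexes was also present in the cortex of those mice, where *Sult1a1* was at 13.3 ± 2.29 CPM in WT males and 34.7 ± 8.7 CPM in WT females. *Ptgds*, the prostaglandin D synthase, was at 379.5 ± 53.1 and 890.3 ± 110 CPM in striatum and at 1173 ± 152 and 1378 ± 193 CPM in cortex. In the WT mice of 12 months, which are other animals, *Sult1a1* was at 26.4 ± 7.91 CPM in 5 males and 27.7 ± 1.8 CPM in 4 females. Among the WT_IPTG mice of 12 months the 5 females were the lower sex, at 15.2 ± 4.76 CPM for *Sult1a1* against 24.9 ± 5.89 CPM in 5 males, and at 3.12 ± 0.472 against 9.80 ± 1.44 CPM for *Angptl4*. *Ptgds* was at 365.8 ± 124 CPM in those females and 552.3 ± 177 CPM in the males, while *Ednrb* was higher in the females, at 49.04 ± 3.76 against 38.4 ± 6.14 CPM. Low *Sult1a1*, *Angptl4* and *Ptgds* with high *Ednrb* was thus also the order in those females, and these 12-month differences were not tested. Without the WT males the change of *Phyhd1* was -0.07 and of *Sult1a1* -0.15.

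**Figure D4:**
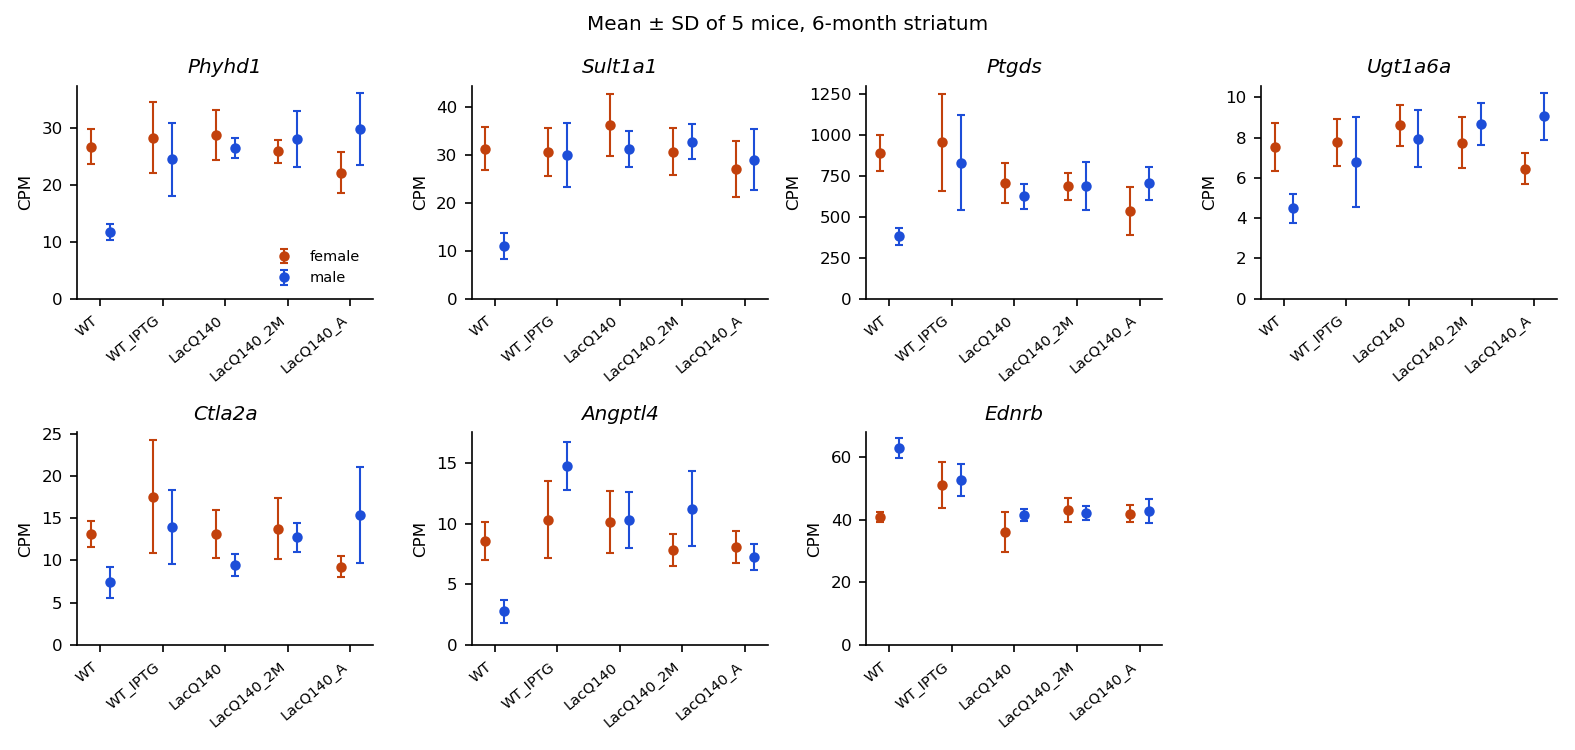
Mean ± SD in CPM over 5 mice of 7 genes called for the difference of the sexes, in each group of the 6-month striatum, with females in orange and males in blue. The WT males lie below every other set for *Phyhd1* (11.8 CPM) and *Sult1a1* (11.0 CPM), and above every other set for *Ednrb* (62.8 CPM).

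The neighbourhood of *Htt* was examined because LacQ140_A mice carry the targeted chromosome and WT mice do not. Within 1 Mb of *Htt* 0 of 54 tested genes were called. Between 1 and 5 Mb 4 of 177 (2.26%) were called, between 5 and 10 Mb 11 of 136 (8.09%), between 10 and 20 Mb 4 genes (1.62%), and farther along the chromosome 17 of 1825 (0.932%), a share near the 0.91% of all genes. In LacQ140 mice, which carry the same chromosome, the shares were 9.26%, 5.08%, 14%, 6.48% and 7.95%, where 7.93% of all genes were called. Once the WT males were left out 1 gene between 1 and 5 Mb (*Abhd1*) and 2 between 5 and 10 Mb (*Gm21655* and *5031410I06Rik*) were called, where 0.0675% of all genes were. Of the 11 genes between 5 and 10 Mb, *Gm21655*, *Gm21168*, *Gm5067*, *Gm6089*, *Gm10471* and *5031410I06Rik* belong to families of near-identical copies, so that their counts are uncertain. The others there were *Prkag2* (an AMPK subunit, -0.35, adjusted p = 0.000525), *Insig1*, *Rnf32*, *Htr5a* and *1700096K18Rik*.

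*Abhd1* (ENSMUSG00000006638, chromosome 5, 30950066 to 30955091), 3.81 Mb from *Htt*, had the lowest p-value of the region. It overlaps *Preb* on the other strand. Its level was between 2.24 and 3.71 CPM in WT and between 5.75 and 8.52 CPM in 8 LacQ140_A libraries, while LacQ140_A F4 was at 2.53 CPM and M5 at 2.89 CPM. The log2 fold change over all 10 was 1.22 (SE 0.146, adjusted p = 1.57e-07), with 1.57 in cortex and 1.63 in 12-month striatum. F4 and M5 were also the lowest LacQ140_A libraries for *Gm5067*, at 0.631 and 0.604 CPM against 1.54 to 1.99 CPM in the other 8. For *Gm6089* they were at 0 and 0.108 CPM against 0.524 to 1.38 CPM, and for *5031410I06Rik* at 0.14 and 0 CPM against 0.433 to 1.18 CPM. In all 4 genes these 2 mice were thus within the WT range or below it. For *Htt* F4 was at 72.4 CPM and M5 at 88.3 CPM, both below the WT range. *Dpysl5*, a microtubule-associated protein of growing axons 3.96 Mb from *Htt*, rose by 0.34 (adjusted p = 0.0079) and by 0.33 at 12 months (adjusted p = 2.55e-05). In the fit without the WT males *Dpysl5* stood at 0.41 and *Prkag2* at -0.31, and neither was called (adjusted p = 0.0873 for each).

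**Figure D5:**
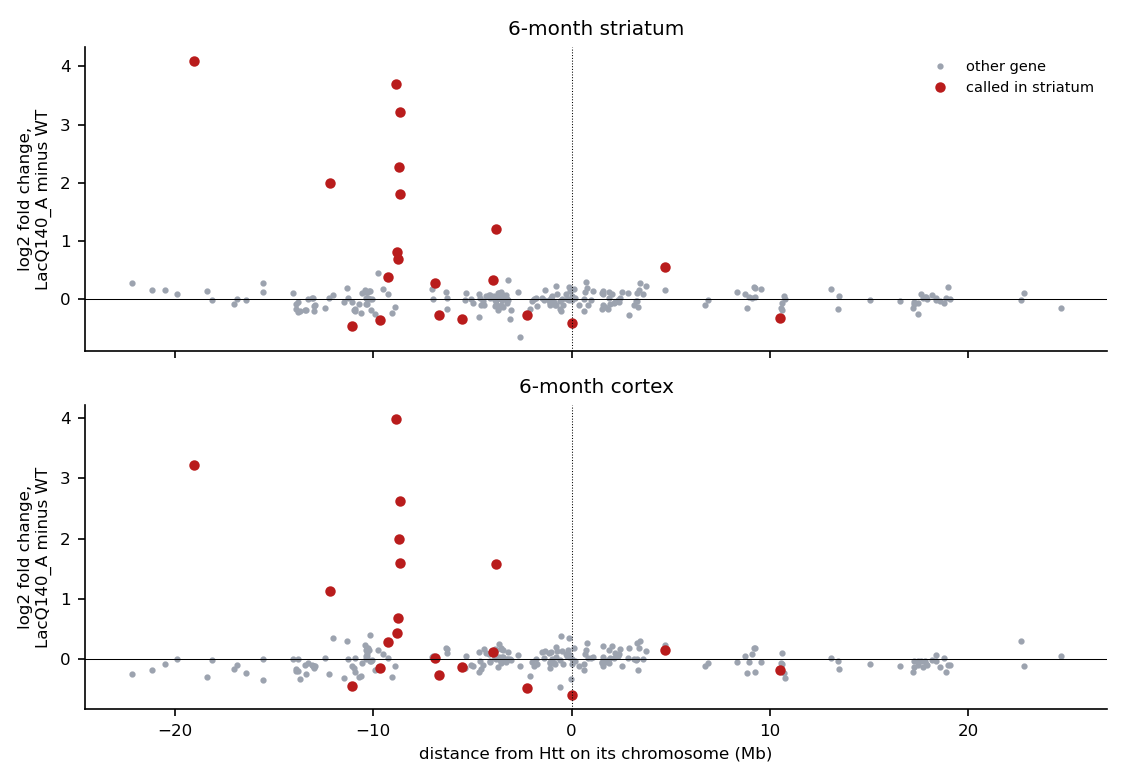
Log2 fold change, LacQ140_A minus WT, of genes on the chromosome of *Htt* that had a mean of at least 1 CPM or were called, against their distance from *Htt* in Mb, in 6-month striatum (top) and in cortex of the same mice (bottom), with genes called in striatum in red. The 11 called genes between 5 and 10 Mb lie on the negative side, and *Htt* is the called gene at 0.

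Set beside the cortex of the same mice, 292 of the 326 genes had the same sign there, and 50 were called in the same direction and 0 in the opposite one. In cortex 153 of 35987 genes were called, or 0.425%, and the median change of the 326 along their striatal direction was 0.24. The mice are shared, so the tissues are not independent, and the WT males are among them in both. Without the WT males in the cortex fit 263 of the 326 genes had the same sign, with a median of 0.13, and the cortex had 2 called genes, *Htt* and *Abhd1*, which is 0.0056% of those tested. In 12-month striatum, from other mice, 1116 of 35386 genes were called, or 3.15%. Of the 326 genes 202 had the same sign there, 67 were called in the same direction and 8 in the opposite direction. The median change along the 6-month direction was 0.06. Of the 24 genes called at 6 months without the WT males, 20 had the same sign at 12 months, 14 were called in the same direction and 0 in the opposite one. The 8 genes were *March11*, which had fallen at 6 months, and *Zc3h6*, *Adamts3*, *Rasl11b*, *Hvcn1*, *Rab3d*, *Sema4c* and *Zfp941*, which had risen, and they were named after their values were seen.

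The genes called at both ages in one direction included several of those that also held without the WT males, namely *Tmc3*, *Acy3*, *Abhd1*, *Prob1*, *Polr2a*, *Enpp6*, *Penk*, *Ddit4l*, *Gm48678* and *Ifi27l2b*. For *Penk* the 12-month value was -0.85 (adjusted p = 1.24e-13), for *Ddit4l* -1.37 (adjusted p = 7.93e-20) and for *Ifi27l2b* -2.92 (adjusted p = 2.62e-10). *Prob1* stood at 0.71 (adjusted p = 2.75e-07) and *Gm48678* at -0.79 (adjusted p = 0.000193). The cholesterol genes *Hmgcs1*, *Mvd*, *Idi1* and *Cyp51* were not called at 12 months, with values of -0.12, 0.11, -0.10 and 0.00. The chaperones *Hspa5*, *Pdia4*, *Manf* and *Creld2* were not called either. A difference between ages was not tested, because each age stands in its own table.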

How the data were processed

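The authors sequenced total RNA of right striatum and cortex (Qiagen kit, Illumina libraries, NovaSeq instrument, paired-end reads) and deposited expected counts per gene, which are estimated read counts without normalization, in 1 table per age. The genome build in the submitters' processing notes is GRCm38. The aligner, the quantification program and the annotation are not given in the sources used here. Fractional values made up 33.85% of the nonzero ones in the 6-month striatum, so all were rounded to whole counts for the tests. Gene identifiers were matched to GENCODE vM21, and 54495 of 54532 matched. Promoters were taken from RefSeq.

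Samples were grouped by their labels. Genes with at least 1 count were kept, since the authors disabled independent filtering. The 5 groups of the 6-month striatum (50 libraries) were fitted together with edgeR 4.0.16 in R 4.3.3 (TMM, glmQLFit with legacy set to FALSE, glmQLFTest, group as the only term), so that all groups share one estimate of the spread. The contrasts were LacQ140_A minus WT, LacQ140 minus WT_IPTG, WT_IPTG minus WT, the difference of the first pair, and, with group by sex as the term, males minus females. The 6-month cortex (50 libraries) and 12-month striatum (57 libraries) were fitted in the same way. CPM were scaled by TMM factors and are given as mean ± SD over mice. DESeq2 1.42.0 was an alternative, with filterByExpr, other size factors, sex, the replicate number, the length slope, the groups compared alone, no bound on the change, and each library left out in turn. The test was tried on simulated data with known changes. No library pair of a group matched within sampling noise, as chi-square over its degrees of freedom was 8.72 or more in all 90 pairs (median 34.6). Columns of samples not in the labels numbered 0.

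The genes named are *Htt*, 7 genes the study plots, and called genes of at least 1 CPM with the largest changes (8 a direction) or smallest p-values (4 a direction). To these come called genes within 10 Mb of *Htt*, called members of the lists (at most 4 a list and direction), and the smallest p-values for the difference of the effects (5 a direction) and of the sexes (3). All called cholesterol and sex-difference genes were added, and a few genes that the rule picks are not reported here, though counts include them. The comparison, the gene lists and the rule were chosen with earlier results of these data known. The fits without the 5 WT males, without the 5 WT females, within one sex, and without LacQ140_A F1 and M1 were chosen after seeing the data. The shallowest library held 44425795 counts, and depth limits genes under 1 CPM most.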

Additional observations from a re-analysis of the deposited data

Results flagged for a closer look

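Libraries far from the other 9 of their group were sought in 146 groups of 10 values (73 genes or marker sums) by Dixon's ratio, which chance alone passes in about 1 of 20 groups, and 19 were found. Among LacQ140_A libraries, *Arpp19* was at 846 CPM in F5 (next 695), *Ddit4l* at 30.8 in F5 (next 25.3), *Drd2* at 282 in F4 (next 234) and *Gm26723* at 26.0 in F4 (next 0.183). *Hspa5* was at 298.3 CPM in M5 (next 246.2), *Pdia4* at 36.1 in M5 (next 31.5), *Srarp* at 2.78 in M5 (next 1.94) and *Insig1* at 49.4 in F3, the lowest (next 55.0). *Prl* was at 74.3 CPM in F1 (next 14.7) and *Cga* at 2.18 in M1 (next 1.06). The summed markers of cortical excitatory neurons were at 398 CPM in F2 (next 281).

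Among WT libraries, *Hspa1b* was at 29.3 CPM in M3 (next 4.36), *Gm18517* at 3.26 in M1 (next 2.57), *5031410I06Rik* at 0.29 in M1 (next 0.12) and *Creld2* at 23.1 in F2 (next 20.1). *Gm6089* was at 0.336 CPM in M4 (next 0.179) and *Gm21655* at 0.147 in M4 (next 0). In WT M5 the summed markers of blood were at 499 CPM (next 359) and those of cortical excitatory neurons at 321.9 CPM (next 245.4).

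The LacQ140_A effect differed between the sexes by edgeR's quasi-likelihood test of the difference in 8 genes, of which 7 are given. The male minus female difference in log2 fold change was 1.61 for *Phyhd1* (adjusted p = 1.63e-06), 1.61 for *Sult1a1* (1.03e-05), 1.63 for *Ptgds* (8.85e-05), 1.23 for *Ugt1a6a* (0.00184), 1.56 for *Ctla2a* (0.00895), 1.46 for *Angptl4* (0.0127) and -0.59 for *Ednrb* (0.0456). The female change was near 0 for *Ednrb* (0.04) and *Angptl4* (-0.08), between -0.27 and -0.21 for *Phyhd1*, *Sult1a1* and *Ugt1a6a*, and further below 0 for *Ctla2a* (-0.51) and *Ptgds* (-0.74). Without the 5 WT males *Ptgds* stood at -0.53 (adjusted p = 0.272). The cause of the WT male levels was not tested. *Ugt1a6a* shares exons with other genes of its cluster on the same strand, so its level is uncertain.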

How the results depend on the processing

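The count of genes called between LacQ140_A and WT stayed within 1.5 times of 326 with DESeq2 (371), filterByExpr (420), DESeq2's size factors (325), sex (357), the length slope (396), no bound (416) and in males alone (127 risen, 148 fallen). It was 131 with only the groups compared in the fit, 143 without LacQ140_A F1 and M1, 24 without the 5 WT males, 616 without the 5 WT females and 14 in females alone, and 165 to 543 with single libraries left out. The genes called in males alone held 46.3% of the 326. For the difference between the LacQ140_A and LacQ140 effects, 126 genes were called as higher and 68 as lower. DESeq2 gave 203 and 101, filterByExpr 188 and 105, the length slope 225 and 200, the fit without F1 and M1 75 and 32, without the WT males 74 and 29, and without the WT females 185 and 122. Single libraries left out gave 90 to 155 and 40 to 90, with 40 as lower without LacQ140_A M1, 41 without LacQ140_A M2 and 42 without WT F4. For the difference of the sexes (8 genes) DESeq2 gave 19 and the length slope 13. *Htt* lay between -0.44 and -0.37 with single libraries left out, and missed the threshold in females alone (-0.33) and without the WT males (-0.30).

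The replicate number as a block gave 272 genes, which held 78.8% of the 326. Same-numbered mice of the 2 groups correlated by 0.09 on average (-0.287 to 0.322), against 0.078 for other numbers of the same sex, and 2 of 10 mice correlated best with their own number, so the numbers were not taken as pairs. *Ptgds*, not called, turned from -0.04 to 0.026 with sex, 0.005 with the block and 0.046 with the length slope. Without the WT males signs turned for *Hmgcs1* (0.017), *Ednrb* (0.02), *Phyhd1* (-0.073), *Sult1a1* (-0.15), *Angptl4* (-0.27), *Ctla2a* (-0.06) and *Ugt1a6a* (0.00), and 39 other genes of the rule for named genes kept their sign but were no longer called. The cause was not tested. Depth limits genes under 1 CPM, of which 59 were called.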
